A study of Danio rerio with 14 samples.

Results

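The genes described here encode the mitochondrial respiratory chain and ATP synthase without complex II, in whole zebrafish larvae. They were taken by gene symbol (prefixes nduf, uqcr, cox4 to cox8, atp5 and mt-) with a mean of at least 10 normalized counts. A normalized count is the number of reads of a gene scaled by the size factor of its library. Among the 36351 genes deposited, 105 carried such a symbol and 102 reached the minimum. The 102 members were 35 complex I subunits, 7 complex I assembly factors, 3 genes of the ndufa4 family, 8 complex III subunits, 18 complex IV subunits, 17 ATP synthase (complex V) subunits, 2 ATP synthase inhibitors and 12 mitochondrially encoded mRNAs. Ndufs8b, ndufa4l2b and ndufs1 lay below the minimum. Nearest above it was ndufa9b, with 16.9, 22.6, 25.1 and 19.4 normalized counts in boscalid larvae, 14.3, 15.2, 19.2 and 12.8 in M510F01 larvae and 1.99, 11.5, 17.8 and 12.8 in DMSO larvae.

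All larvae were of the AB wild-type strain and whole animals at 96 hours post fertilization (hpf), and exposure had begun at 3 hpf. One group had received boscalid at 0.03 µg/L, another M510F01, a metabolite of boscalid, at 0.03 µg/L, and the control group only the solvent dimethyl sulfoxide (DMSO) at 0.01% v/v. Total RNA had been depleted of ribosomal RNA and sequenced. The tables held 4 libraries per group, and the fifth boscalid and the fifth M510F01 sample were not analysed here.

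Complex I takes electrons from NADH, complex III passes them from ubiquinol to cytochrome c, complex IV reduces oxygen, and ATP synthase uses the proton gradient that these complexes build. Their subunits come from both genomes: the mitochondrial DNA encodes core subunits of each of these complexes, and the nuclear genome encodes the other subunits and all assembly factors. Complex II, succinate dehydrogenase, is wholly nuclear and is the enzyme that boscalid inhibits in fungi; it is not among the genes described here.

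The 12 libraries held 12893093 to 17060350 reads assigned to genes. Whether replicates came from separate clutches, tanks or pools is not in the labels, and the p-values cover no more than the spread among these samples, which may be technical. In each group the libraries numbered 1 and 2 lay apart from those numbered 3 and 4 on the first component of the within-group differences, which held 37.9% of that variance. Of 38 marker entries for muscle, heart, retina, liver, exocrine pancreas, gut, blood, epidermis, ionocytes and neurons 37 were matched and none of these was at 0 in any library. Values per library are given on 1 scale common to the 12 libraries, and fold changes against DMSO come from the table of each compound, which differed from that scale by at most 1.01%.

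Boscalid larvae had slightly higher estimates than DMSO larvae for nearly the whole chain, and no single gene passed the test. The median log2 fold change was 0.29 for complex I (35 of 35 genes positive), 0.27 for complex III (8 of 8), 0.23 for complex IV (16 of 18) and 0.27 for ATP synthase (17 of 17). Without DMSO library 1 the medians for complex IV and ATP synthase were 0.11 and 0.18, and without DMSO library 3 they were 0.37 and 0.42. Over the 78 nuclear subunit genes of these complexes it was 0.27, a 1.21-fold difference, with 76 positive. The 12 mitochondrially encoded mRNAs had a median of 0.15, a 1.11-fold difference, with 12 positive. Over all 23085 genes tested the median was -0.00 and 11541 were positive. The nuclear subunit genes rose and fell together between libraries, so the counts of positive genes are not counts of separate observations. DMSO library 1 was the lowest of its group for 72 of the 78 and DMSO library 3 the highest for 73. Their mean differed by 0.26 between boscalid and DMSO, with a pooled standard deviation within groups of 0.23. None of the 102 members passed a limma adjusted p of 0.05, where 0.0173% of all genes tested did. Under an unadjusted p of 0.05 there were 8 members, against 7.68% of all genes. That count depended on the fit. With the replicate number as a block it was 71, against 20.0% of all genes. With a term for numbers 1 and 2 against 3 and 4 it was 47, against 14.7%. Without boscalid library 1 it was 44, against 16.5%, and without boscalid library 3 it was 1, against 3.93%. Whether the replicate numbers pair the samples was not settled. EdgeR and DESeq2 on the recovered reads also called 0 members in each of the 3 comparisons. In the authors' deposited table the smallest adjusted p of a member was 0.551, that of ndufb6.

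M510F01 larvae lay close to DMSO larvae. The medians were 0.07 for complex I (31 of 35 positive), 0.04 for complex III (6 of 8), 0.02 for complex IV (10 of 18), 0.05 for ATP synthase (14 of 17) and 0.06 for the mitochondrially encoded mRNAs (10 of 12). Over all genes tested 51.3% were positive. Of the 102 members 77 were positive with all libraries and 90 without DMSO library 3. Without DMSO library 1 there were 34, and without M510F01 library 4 there were 35. No member passed, as no gene of the 23193 tested did (0%, and 3.61% under an unadjusted p of 0.05, among them 2 members). Both compounds were compared with the same 4 DMSO libraries.

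**Figure D1:**
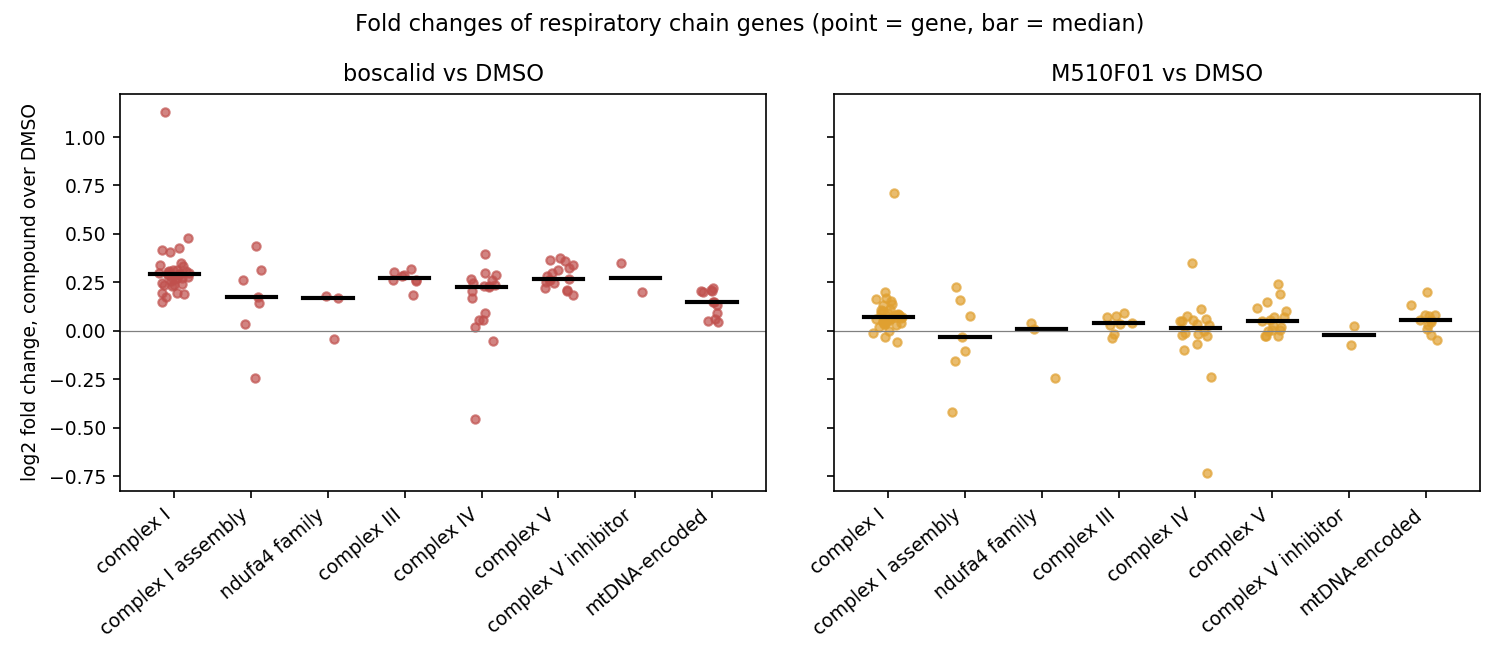
Log2 fold changes (vertical axis) of the 102 genes by class (horizontal axis), boscalid over DMSO on the left and M510F01 over DMSO on the right; each point is a gene and each bar the median of a class. With boscalid the class medians of complexes I, III, IV and V stand between 0.23 and 0.29, and with M510F01 between 0.02 and 0.07.

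In complex I the entry point of electrons is formed by ndufv1, which binds NADH and its flavin cofactor. Ndufv1 (LL0000020155) had 2722, 3120.3, 3443 and 3156 normalized counts in boscalid larvae, 2469, 2511, 2669 and 3173 in M510F01 larvae and 2381, 2828, 3294 and 2769 in DMSO larvae, in the order of the replicate numbers. The groups overlapped, and DMSO library 3 stood above 3 of the 4 boscalid libraries. Its log2 fold change was 0.15 (SE 0.13, limma adjusted p = 0.71) with boscalid, the smallest of the 35 complex I subunits, and -0.06 (SE 0.13, limma adjusted p = 0.9998) with M510F01. Ndufs1, which in mammals is the large iron-sulfur subunit next to ndufv1, had 1 to 6 reads per library under this symbol and was not tested.

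The complex I subunits with the smallest p were ndufb6, ndufb3 and ndufab1b. Ndufb6 (LL0000020141), an accessory subunit of the membrane arm, had 514, 582, 742 and 639 normalized counts with boscalid, 445, 447, 475 and 623 with M510F01 and 413, 421, 598 and 416 with DMSO. The M510F01 library 4 and the DMSO library 3 stood far above the other 3 of their groups, within the range of the boscalid libraries. Boscalid larvae averaged 619 ± 96.5 and DMSO larvae 462 ± 90.6 (SD, n = 4 each), and the log2 fold change was 0.43 (SE 0.15, limma adjusted p = 0.63). Ndufb3 (LL0000020138), of the same arm, had 429.8, 496, 624 and 651 with boscalid, 411, 443, 425 and 530.1 with M510F01 and 365, 373, 498 and 409.8 with DMSO. The 2 lowest boscalid libraries lay below DMSO library 3, and the log2 fold change was 0.41 (SE 0.15, limma adjusted p = 0.64). Ndufab1b (LL0000020125), an acyl carrier protein that is also needed for mitochondrial fatty acid synthesis, had 309, 317, 453 and 483 with boscalid, 309, 325, 277 and 372 with M510F01 and 248, 268, 340.0 and 297 with DMSO. Its log2 fold change was 0.42 (SE 0.17, limma adjusted p = 0.65) with boscalid and 0.16 (SE 0.13, limma adjusted p = 0.9998) with M510F01.

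Paralogues within complex I had unequal levels of evidence. Ndufa9a was tested on 1357, 1519.6, 1668 and 1721 normalized counts with boscalid and 1100.1, 1297, 1541 and 1322 with DMSO, with a log2 fold change of 0.26 (SE 0.13, limma adjusted p = 0.65). Its paralogue ndufa9b rested on 2 to 29 reads per library. The estimate for ndufa9b, 1.13 (SE 0.50, limma adjusted p = 0.65), was the highest of all members, and DMSO library 1 alone held the 2 reads. The other 32 complex I subunits with boscalid estimates lay between ndufv1 and ndufb2, and ndufb2, at 0.48 (SE 0.32, limma adjusted p = 0.68), varied widely within the boscalid group (227, 419, 706 and 588).

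Assembly factors of complex I build the enzyme and are not part of it. Their median was 0.18 with boscalid, with 6 of 7 positive, and -0.03 with M510F01, with 3 of 7 positive. With 1 library left out it ran from 0.10 (without DMSO library 1) to 0.28 (without boscalid library 1) with boscalid, and from -0.08 (without DMSO library 4) to 0.06 (without M510F01 library 1) with M510F01. Ndufaf4 (LL0000020129), an assembly factor, had 66.4, 70.7, 74.3 and 75.4 normalized counts with boscalid, 62.3, 56.8, 56.7 and 72.3 with M510F01 and 48.7, 47.2, 61.3 and 54.4 with DMSO. It was the only one of the 102 members for which all 4 boscalid libraries stood above all 4 DMSO libraries, where 2.2% of all genes tested did. It averaged 71.7 ± 4.07 in boscalid larvae and 52.9 ± 6.42 in DMSO larvae (SD, n = 4 each), and its log2 fold change of 0.44 (SE 0.14, limma adjusted p = 0.58) had the smallest p among members. Ndufaf1 stood at 0.32 (SE 0.15, limma adjusted p = 0.65) and ndufaf6 at 0.26 (SE 0.18, limma adjusted p = 0.68). Ndufaf7, a methyltransferase that acts on a complex I subunit in mammals, lay on the other side of zero, at -0.24 (SE 0.24) with boscalid and -0.42 (SE 0.18, limma adjusted p = 0.9998) with M510F01.

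Complex III members lay close together, all 8 between 0.18 and 0.32 with boscalid. Uqcrc1 (LL0000031664), a core protein of the matrix side, had 2738, 3091, 3818 and 3555 normalized counts with boscalid, 2445, 2787, 2707 and 3380.4 with M510F01 and 2378, 2485, 3317 and 2618 with DMSO. Boscalid library 1 lay inside the DMSO range, as did boscalid library 2. The log2 fold change of uqcrc1 was 0.29 (SE 0.15, limma adjusted p = 0.65) with boscalid and 0.07 (SE 0.14, limma adjusted p = 0.9998) with M510F01. Uqcrfs1 (LL0000031667), the Rieske iron-sulfur protein that hands electrons to cytochrome c1, had 2320.2, 2462, 3192 and 3088 with boscalid, 2067, 2476, 2287 and 2729 with M510F01 and 1986, 2146, 2821 and 2139 with DMSO. The lowest library was number 1 in each of the 3 groups, and the log2 fold change with boscalid was 0.28 (SE 0.15, limma adjusted p = 0.65). Uqcrh (LL0000031668), the hinge protein, stood at 0.30 (SE 0.16, limma adjusted p = 0.65) with boscalid and at 0.04 (SE 0.14, limma adjusted p = 0.9998) with M510F01.

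**Figure D2:**
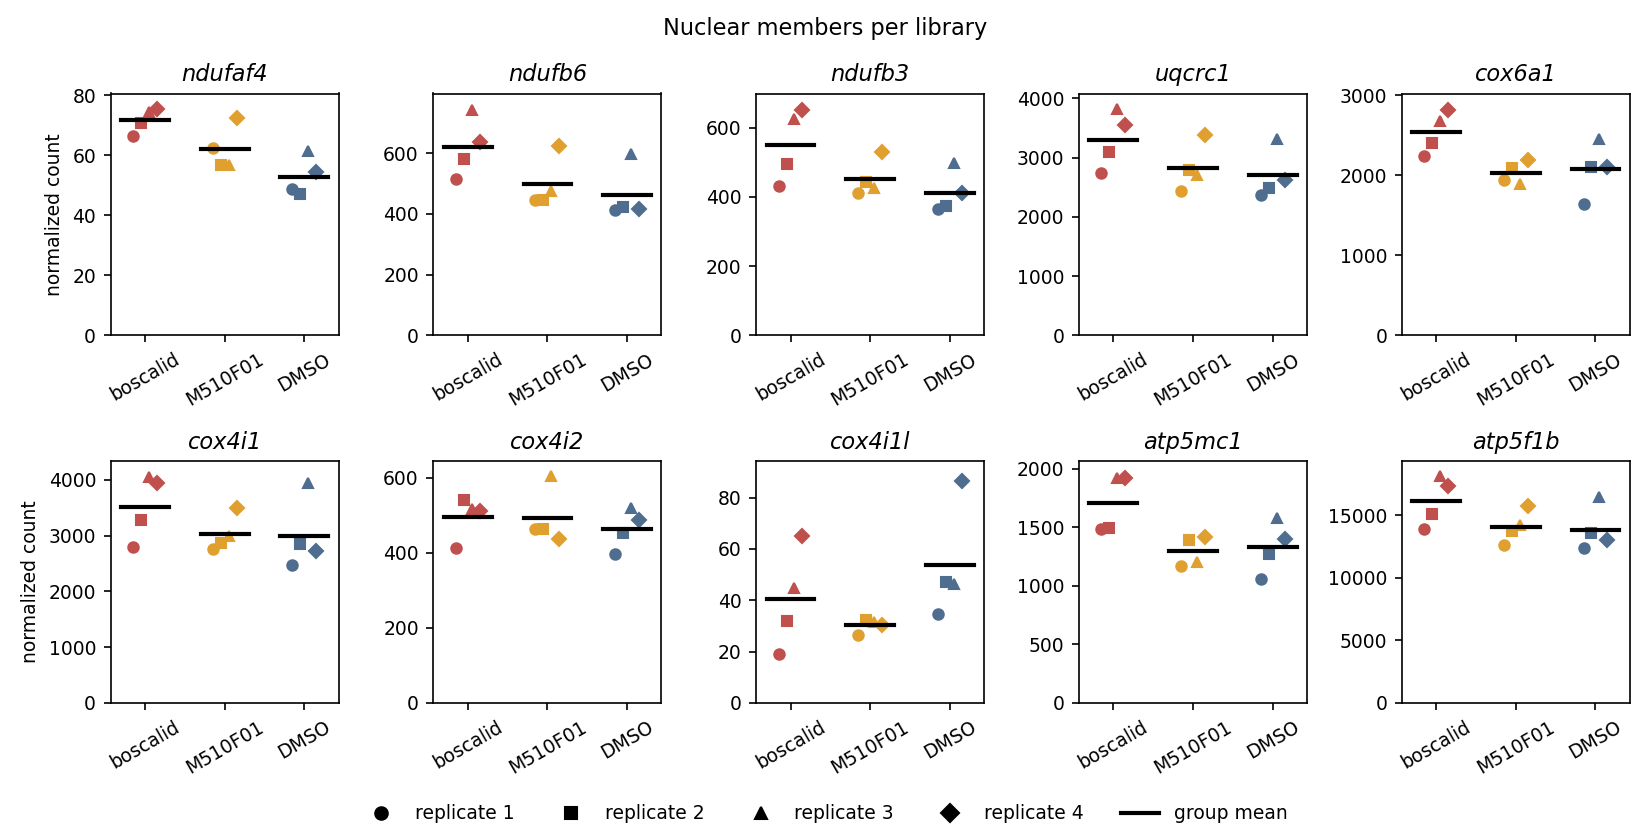
Normalized counts (vertical axes, from 0) of selected nuclear members in each library, by group (horizontal axes: boscalid, M510F01, DMSO); marker shapes give the replicate number and bars the group mean. Ndufaf4 has no overlap between boscalid and DMSO libraries, whereas for ndufb6 the DMSO library 3, at 598, stands within the boscalid range.

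Complex IV held the only nuclear subunit genes with negative estimates with boscalid, and its range was -0.45 to 0.39. Cox4i1 (LL0000006103), the common form of the largest nuclear subunit, had 2796, 3271, 4052 and 3942 normalized counts with boscalid, 2757, 2861, 2998 and 3497 with M510F01 and 2471, 2845, 3944 and 2727 with DMSO. Library 3 of DMSO lay between the 2 highest boscalid libraries. Its log2 fold change was 0.24 (SE 0.17, limma adjusted p = 0.69) with boscalid and 0.03 (SE 0.15, limma adjusted p = 0.9998) with M510F01. Cox4i2 (LL0000006105), whose mammalian counterpart is the isoform used in low oxygen, had 412, 541, 518 and 512 with boscalid, 463, 464, 603 and 436 with M510F01 and 396, 453, 520.0 and 488 with DMSO. The 3 groups overlapped throughout, and the log2 fold changes were 0.09 (SE 0.12, limma adjusted p = 0.80) with boscalid and 0.08 (SE 0.13, limma adjusted p = 0.9998) with M510F01.

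Cox4i1l (LL0000006104) had the lowest estimate of complex IV with each compound, and it rested on 17 to 81 reads per library. With M510F01 8 of the 18 complex IV genes had negative estimates. It had 19.1, 32.03, 44.9 and 65.2 normalized counts with boscalid, 26.6, 32.4, 31.7 and 30.2 with M510F01 and 34.8, 47.2, 46.5 and 86.5 with DMSO. All 4 M510F01 libraries stood below all 4 DMSO libraries, the only such member, where 1.06% of all genes tested did. No member stood above all 4 DMSO libraries with M510F01, where 1.12% of all genes did. For cox4i1l the log2 fold change was -0.73 (SE 0.25, limma adjusted p = 0.9998) with M510F01, at means of 30.2 ± 2.61 with M510F01 and 53.7 ± 22.6 with DMSO (SD, n = 4 each). With boscalid it was -0.45 (SE 0.37, limma adjusted p = 0.70), and boscalid libraries 1 and 2 lay below the DMSO range while 3 and 4 lay within it.

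Among the other complex IV subunits, cox6a1 (LL0000006110) had 2246, 2402, 2681 and 2820.2 normalized counts with boscalid, 1946, 2095, 1887 and 2192 with M510F01 and 1642, 2099, 2449 and 2108 with DMSO. The 4 M510F01 libraries lay below the 4 boscalid libraries, as they did for 1.39% of all genes tested, while the boscalid and DMSO libraries overlapped. Its log2 fold change with boscalid was 0.30 (SE 0.14, limma adjusted p = 0.65). Cox6a2, whose mammalian counterpart is the heart and skeletal muscle isoform, was at 0.02 (SE 0.30) with boscalid and 0.35 (SE 0.26) with M510F01. Cox6c stood at 0.29 (SE 0.17, limma adjusted p = 0.66) and cox8a at 0.25 (SE 0.16, limma adjusted p = 0.67) with boscalid. Lowest next to cox4i1l was cox5b2, at -0.05 (SE 0.17).

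The ndufa4 family was named after complex I, and its mammalian founder belongs to complex IV, so it was set apart. Ndufa4l, the member with the highest count, had 1984, 2548, 2783 and 2642 normalized counts with boscalid, 1905, 2123, 2337 and 2468 with M510F01 and 1838, 2068, 2696 and 2208 with DMSO. The groups overlapped, with log2 fold changes of 0.18 (SE 0.15, limma adjusted p = 0.70) for boscalid and 0.01 (SE 0.13, limma adjusted p = 0.9998) for M510F01. Ndufa4 was at 0.17 (SE 0.14, limma adjusted p = 0.71) with boscalid. Ndufa4l2a, a relative of the hypoxia-induced mammalian NDUFA4L2, rested on 20 to 44 reads per library and was at -0.04 (SE 0.26, limma adjusted p = 0.96).

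ATP synthase subunits had positive estimates with boscalid throughout, from 0.18 to 0.38. Atp5f1b (LL0000001603), the catalytic beta subunit, had 13939, 15094, 18141 and 17348 normalized counts with boscalid, 12651, 13730.3, 14240.2 and 15754 with M510F01 and 12352, 13598, 16474 and 12999 with DMSO. DMSO library 3 lay above the 2 lowest boscalid libraries. The log2 fold change was 0.22 (SE 0.14, limma adjusted p = 0.67) with boscalid and 0.03 (SE 0.13, limma adjusted p = 0.9998) with M510F01. Atp5fa1 (LL0000001607), the alpha subunit of the same head, had 9663, 10167, 10685 and 11537 with boscalid, 9961, 10121, 8920.4 and 10523 with M510F01 and 8665, 9260.4, 9928 and 8569 with DMSO. Boscalid library 1 lay inside the DMSO range and the other 3 above it, and the log2 fold change with boscalid was 0.21 (SE 0.11, limma adjusted p = 0.66).

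The c subunits form the rotor ring in the membrane, and atp5mc1, atp5mc3a and atp5mc3b encode closely related forms of it, so reads may be split between them in a way the sources used here do not describe. Atp5mc1 (LL0000001611) had 1484, 1495, 1926 and 1922 normalized counts with boscalid, 1171, 1396, 1204 and 1422 with M510F01 and 1061, 1276, 1585 and 1400.3 with DMSO. All 4 M510F01 libraries lay below all 4 boscalid libraries, where 1.39% of all genes tested did, and DMSO library 3 stood above the 2 lowest boscalid libraries. With boscalid the log2 fold changes were 0.36 (SE 0.15, limma adjusted p = 0.65) for atp5mc1, 0.25 (SE 0.11, limma adjusted p = 0.65) for atp5mc3a and 0.25 (SE 0.17, limma adjusted p = 0.68) for atp5mc3b.

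Atp5f1d (LL0000001605), the delta subunit of the central stalk, had 438, 418, 547 and 636 normalized counts with boscalid, 499, 527, 370.0 and 449.6 with M510F01 and 331, 394, 459 and 374 with DMSO. Its M510F01 libraries 1 and 2 stood higher on average than 3 and 4, while 74 of the 78 nuclear subunit genes had the higher mean in 3 and 4. Its log2 fold change was 0.38 (SE 0.15, limma adjusted p = 0.65) with boscalid and 0.24 (SE 0.13, limma adjusted p = 0.9998) with M510F01.

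Atp5if1a and atp5if1b encode the inhibitor that keeps ATP synthase from running backwards. Atp5if1a had 487, 532, 643 and 756 normalized counts with boscalid, 415, 539, 455 and 503 with M510F01 and 349, 442, 586 and 529 with DMSO. Atp5if1b had 549, 748, 817 and 683 with boscalid, 513, 509.9, 548 and 752 with M510F01 and 486, 523, 849 and 608 with DMSO. The groups overlapped for both, with log2 fold changes of 0.35 (SE 0.18, limma adjusted p = 0.65) for atp5if1a and 0.20 (SE 0.18, limma adjusted p = 0.72) for atp5if1b with boscalid.

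The mitochondrial DNA of vertebrates carries 13 protein-coding genes, transcribed as long RNAs that are then processed. The rule found 12 of these genes, and the remaining one stands in the tables under the symbol COX3. Its values are given here beside the members. All 13 had positive estimates with boscalid, between 0.05 and 0.22, with standard errors of similar size. Most share such a long RNA, so they are not 13 separate observations. No mitochondrial rRNA or tRNA row carried the prefix.

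The complex I subunits of the mitochondrial DNA form the membrane arm through which protons pass. Mt-nd1 had 12061, 10624, 13464 and 12759 normalized counts with boscalid, 12624, 11464, 9999 and 10587 with M510F01 and 10725, 10541, 11356 and 9684 with DMSO. All boscalid libraries but the second lay above the DMSO range, and the log2 fold change was 0.21 (SE 0.12, limma adjusted p = 0.66). Mt-nd2 had 8403, 7021, 9126 and 9069 with boscalid, 9981, 9468, 6212 and 6693 with M510F01 and 7584, 7167, 6888 and 7253 with DMSO. Here too only boscalid library 2 lay inside the DMSO range, and the log2 fold change was 0.21 (SE 0.12, limma adjusted p = 0.66). The estimates were 0.20 (SE 0.15) for mt-nd3, 0.13 (SE 0.11) for mt-nd4l, 0.06 (SE 0.13) for mt-nd4, 0.05 (SE 0.17) for mt-nd5 and 0.22 (SE 0.15) for mt-nd6, each with a limma adjusted p of at least 0.68. Mt-nd6, the only protein-coding gene on the other strand of the circle, overlaps the end of mt-nd5, and whether counting used the strand is not given in the sources used here.

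Mt-cyb and mt-co1 varied least over the 12 libraries among the mitochondrially encoded mRNAs. Mt-cyb, the core of complex III, had 24105, 25655, 27817 and 26899 normalized counts with boscalid, 25572, 24965, 22926 and 24604 with M510F01 and 23982, 24655, 26697 and 25884 with DMSO. Its highest library was 1.21 times its lowest over all 12, and its log2 fold change was 0.05 (SE 0.11, limma adjusted p = 0.90) with boscalid and -0.04 (SE 0.10, limma adjusted p = 0.9998) with M510F01. Mt-co1, the catalytic subunit of complex IV, had 98779, 101476, 116149.5 and 113375 with boscalid, 98044, 99956, 96539.8 and 102491 with M510F01 and 94795, 95922, 113364 and 99740.3 with DMSO. Its highest library was 1.23 times its lowest, and its log2 fold change was 0.09 (SE 0.13, limma adjusted p = 0.82) with boscalid and -0.02 (SE 0.12, limma adjusted p = 0.9998) with M510F01. Mt-co2, which receives electrons from cytochrome c, was at 0.15 (SE 0.16) and COX3 at 0.14 (SE 0.14) with boscalid. Over all 12 libraries the highest was 1.46 times the lowest for mt-co2 and 1.38 times for COX3.

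Transcripts of the ATP synthase genes of the mitochondrial DNA differed most between single libraries, and not by group. Mt-atp6, the subunit that lets protons pass to the rotor, had 10010.0, 7051, 9583 and 9669.5 normalized counts with boscalid, 12675, 11223, 6017 and 6387 with M510F01 and 9646, 8719.6, 6323 and 8192 with DMSO. M510F01 libraries 1 and 2 held the highest counts of all 12 libraries, and M510F01 libraries 3 and 4 were among the 3 lowest. Mt-atp8, its neighbour on the circle, had 1052, 747, 1094 and 1068 with boscalid, 1478, 1243, 702 and 707 with M510F01 and 1004, 935, 681 and 819.7 with DMSO. Over the 12 libraries the highest was 2.11 times the lowest for mt-atp6 and 2.17 times for mt-atp8. Within boscalid alone these ratios were 1.42 and 1.46, below the 1.53 of mt-nd6 and the 1.52 of mt-nd5. Log2 fold changes were 0.15 (SE 0.17, limma adjusted p = 0.77) with boscalid and 0.08 (SE 0.24, limma adjusted p = 0.9998) with M510F01 for mt-atp6, and 0.20 (SE 0.16, limma adjusted p = 0.69) with boscalid and 0.20 (SE 0.23, limma adjusted p = 0.9998) with M510F01 for mt-atp8.

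The mitochondrially encoded mRNAs did not keep a fixed ratio to each other from library to library. Mt-atp6, mt-atp8, mt-nd2, mt-nd4, mt-nd4l and mt-nd5 were all highest in M510F01 library 1. Among them mt-atp8 overlaps mt-atp6 and mt-nd4l overlaps mt-nd4, each by 7 bases. As mitochondrial genes are transcribed together as long RNAs, none of these genes is an independent observation. The ratio of mt-atp6 to COX3 counts, genes that adjoin on the circle, was 0.282, 0.184, 0.214 and 0.225 with boscalid, 0.354, 0.293, 0.160 and 0.158 with M510F01 and 0.298, 0.255, 0.144 and 0.225 with DMSO. The highest ratio was 2.47 times the lowest. Its group means were 0.226 ± 0.041 with boscalid, 0.241 ± 0.098 with M510F01 and 0.230 ± 0.065 with DMSO (SD, n = 4 each), a difference between groups smaller than the spread within each. This grouping of the genes was made after their values were seen and is a description without a test.

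**Figure D3:**
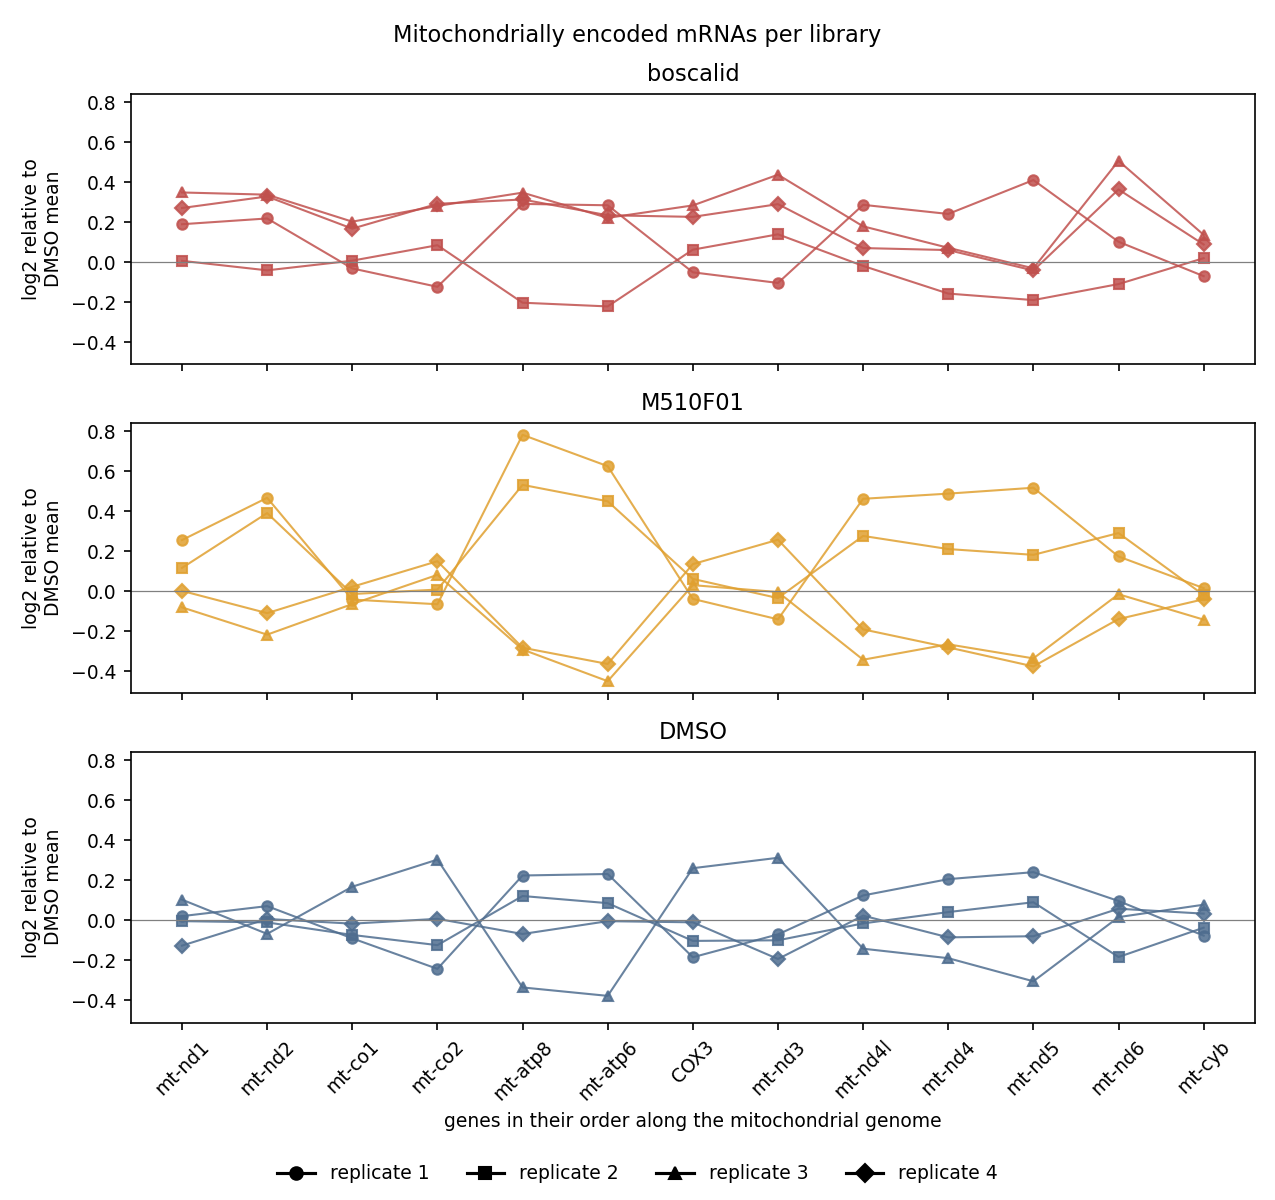
Level of each mitochondrially encoded mRNA (COX3 included) in each library as log2 relative to the DMSO mean (vertical axes), in the order of the genes along the mitochondrial genome (horizontal axis), with 1 panel per group and 1 line per replicate. Over all 12 libraries mt-atp8 and mt-atp6 part the libraries most, and mt-co1 and mt-cyb least. Within boscalid mt-nd6 has the widest spread, and within DMSO mt-nd2 has the narrowest.

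Summed over genes, the 13 mitochondrially encoded mRNAs took 1.76%, 1.76%, 2.01% and 2.02% of the reads with boscalid, 1.86%, 1.85%, 1.72% and 1.78% with M510F01 and 1.69%, 1.66%, 1.91% and 1.71% with DMSO. The 90 nuclear members took 0.722%, 0.828%, 0.972% and 0.969% with boscalid, 0.681%, 0.741%, 0.770% and 0.870% with M510F01 and 0.630%, 0.696%, 0.907% and 0.705% with DMSO. For the mitochondrial sum the 2 highest libraries were boscalid 3 and 4, and for the nuclear sum they were the same libraries. Mitochondrial reads per nuclear read numbered 2.44, 2.12, 2.07 and 2.08 with boscalid, 2.72, 2.49, 2.23 and 2.04 with M510F01 and 2.69, 2.39, 2.10 and 2.43 with DMSO. The 3 groups overlapped in this ratio. In whole larvae a change in the number of cells of a type and a change in RNA per cell cannot be told apart. Neither can a change in the number of mitochondria and a change in the RNA in each.

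Nuclear and mitochondrial transcripts differed in how they varied within a group. The mean over the 78 nuclear subunit genes, as log2 relative to the DMSO mean, was -0.05, 0.18, 0.49 and 0.43 in boscalid libraries, -0.11, 0.01, 0.05 and 0.26 in M510F01 libraries and -0.29, -0.07, 0.37 and -0.01 in DMSO libraries. The boscalid mean exceeded the DMSO mean by 0.26 and the pooled standard deviation within groups was 0.23. For the 12 mitochondrially encoded mRNAs the same mean was 0.15, -0.05, 0.26 and 0.21 in boscalid libraries, 0.30, 0.21, -0.17 and -0.10 in M510F01 libraries and 0.07, -0.01, -0.03 and -0.03 in DMSO libraries. Here the boscalid mean exceeded the DMSO mean by 0.14 and the pooled standard deviation was 0.16. The DMSO libraries spanned 0.655 for the nuclear mean and 0.098 for the mitochondrial mean. In M510F01 libraries the mitochondrial mean varied more, with a standard deviation of 0.23 against 0.16 for the nuclear mean. Single mitochondrial genes moved in opposite directions, which the mean evens out. From DMSO library 1 to DMSO library 3 mt-atp6 went from 9646 to 6323 normalized counts and mt-co2 from 30982 to 45239.

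**Figure D4:**
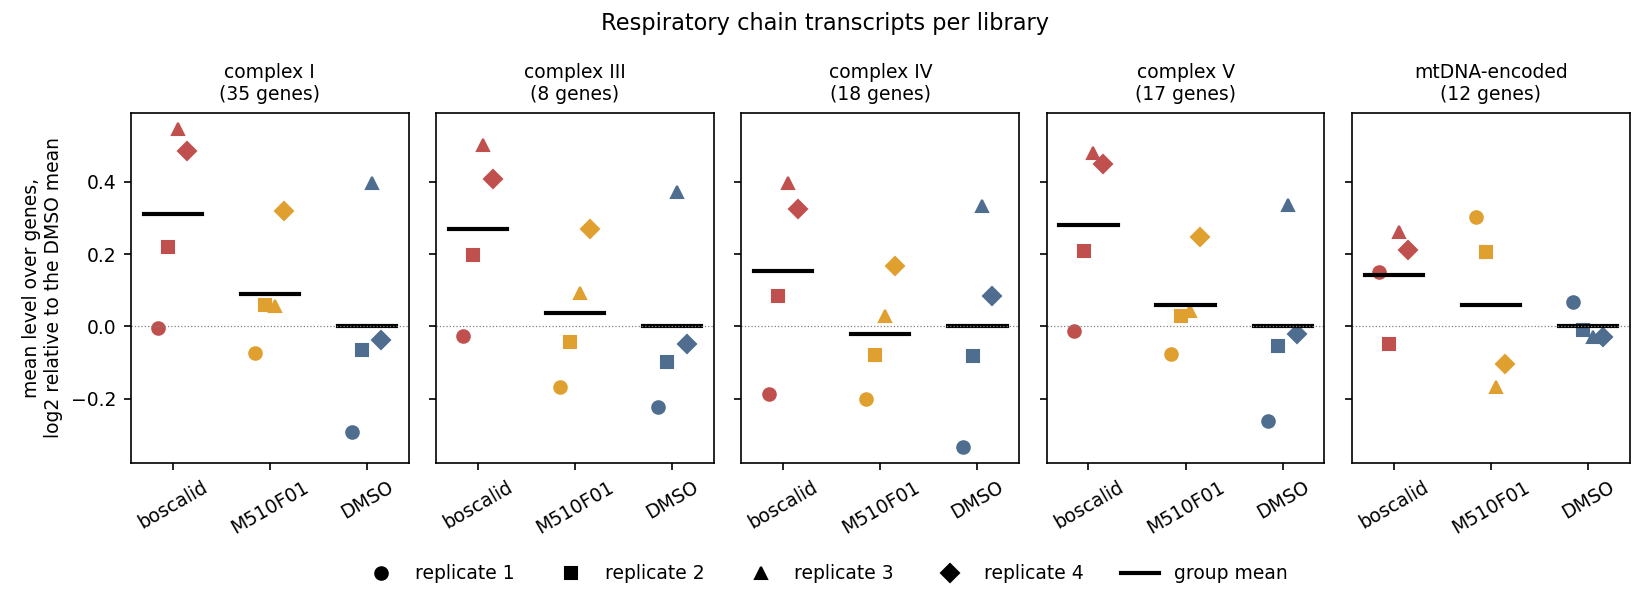
Mean level over the genes of each class in each library, as log2 relative to the DMSO mean (vertical axis), by group (horizontal axis: boscalid, M510F01, DMSO); points are libraries, marker shapes give the replicate number and bars the group mean. DMSO library 1 is low and DMSO library 3 high in complexes I, III, IV and V. The 4 DMSO libraries lie within 0.098 of each other for the mean of the mitochondrially encoded mRNAs, whose single genes differ in direction.

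Nuclear subunit genes followed the libraries almost as a block. DMSO library 1 was the lowest of its group for 72 of the 78 and DMSO library 3 the highest for 73, where over all genes tested the shares were 26.9% and 30.7%. Boscalid library 1 was the lowest of its group for 72 of the 78, and M510F01 library 4 the highest of its group for 69. The shares over all genes tested were not computed for these libraries, so their counts are not shown to be particular to these genes. The highest DMSO library was 1.57 times the lowest at the median of the nuclear subunit genes, 1.26 times for the mitochondrially encoded mRNAs and 1.40 times for all genes tested.

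The libraries numbered 3 and 4 stood above those numbered 1 and 2 in each group for nuclear subunit genes, with a median log2 difference of 0.38 within boscalid (78 of 78 genes positive), 0.24 within M510F01 (74 of 78) and 0.33 within DMSO (78 of 78). For the mitochondrially encoded mRNAs the same difference was 0.20 within boscalid (10 of 12), -0.45 within M510F01 (3 of 12) and -0.04 within DMSO (5 of 12). The same differences within groups were not computed over all genes tested, so they are not shown to be particular to these genes. What the numbers stand for is not in the labels. Within numbers 1 and 2 the median boscalid against DMSO difference was 0.24 for nuclear subunit genes and 0.05 for the mitochondrially encoded mRNAs. Within numbers 3 and 4 it was 0.28 and 0.26, in the same order of gene groups. For M510F01 against DMSO the nuclear medians were 0.10 within numbers 1 and 2 and 0.01 within numbers 3 and 4, and the mitochondrial medians 0.20 and -0.12.

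The nuclear medians depended on single DMSO libraries. For boscalid against DMSO the nuclear subunit median was 0.18 without DMSO library 1 and 0.40 without DMSO library 3. The mitochondrial median ran from 0.12 without boscalid library 3 to 0.20 without boscalid library 2. The gap between them, mitochondrial minus nuclear, was -0.12 with all libraries, -0.00 without DMSO library 1 and -0.28 without DMSO library 3. For M510F01 against DMSO the nuclear median was -0.03 without DMSO library 1 and 0.18 without DMSO library 3, with a change of sign in each of complexes I, III, IV and V without DMSO library 1. The mitochondrial median was -0.00 without M510F01 library 1 and 0.13 without M510F01 library 4.

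**Figure D5:**
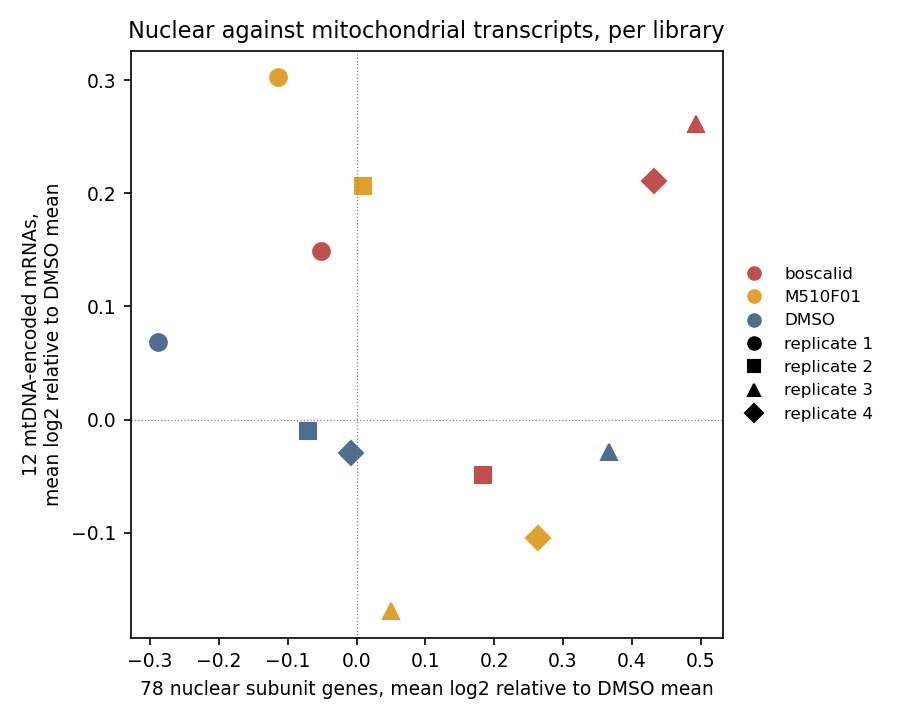
Mean level of the 12 mitochondrially encoded mRNAs (vertical axis) against that of the 78 nuclear subunit genes (horizontal axis) in each of the 12 libraries, both as log2 relative to the DMSO mean; colours give the group and marker shapes the replicate number. The DMSO libraries run from -0.29 to 0.37 on the horizontal axis and from -0.03 to 0.07 on the vertical axis, and the M510F01 libraries spread on both, from -0.11 to 0.26 and from -0.17 to 0.30.

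Mean levels of the markers of several tissues also differed between the groups, and the part of the markers in these results was not tested. No marker tested had a limma adjusted p under 0.05 with boscalid. Summed normalized counts of 4 retina markers ran from 27019 to 33019 in boscalid libraries, 21727 to 28244 in M510F01 libraries and 15405 to 27035 in DMSO libraries. Those of 4 exocrine pancreas markers ran from 27324 to 45640 with boscalid, 21790.1 to 33050.4 with M510F01 and 22993 to 36944 with DMSO. Those of 6 skeletal muscle markers ran from 514372 to 631491 with boscalid, 456574 to 599218 with M510F01 and 496527 to 621189 with DMSO. The mean log2 level relative to DMSO was 0.49 for retina, 0.52 for exocrine pancreas, 0.41 for gut, 0.34 for epidermis, 0.55 for ionocytes (a mean over 3 genes), 0.07 for skeletal muscle, 0.15 for heart, 0.09 for liver, -0.03 for neurons and -0.23 for blood in boscalid larvae. The summed ionocyte markers ran the other way, from 7849 to 8272 with boscalid, 8050 to 8452 with M510F01 and 8167 to 8755 with DMSO. In M510F01 larvae the mean log2 level was 0.41 for gut, as with boscalid, 0.23 for retina, 0.15 for exocrine pancreas, -0.06 for epidermis and -0.04 for ionocytes. It was 0.08 for neurons, 0.07 for liver, -0.10 for heart, -0.10 for skeletal muscle and -0.33 for blood. The summed skeletal muscle markers were lowest in library 1 of each group and highest in library 3 of both the boscalid and the DMSO group, as most nuclear subunit genes were. Muscle was not alone in this. Summed epidermis markers were also lowest in library 1 of each group and highest in DMSO library 3. Retina and exocrine pancreas sums were likewise highest in library 3 of the boscalid and DMSO groups. Neuron sums ran the other way, highest in library 1 of each group.

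The direct comparison of the compounds, both at 0.03 µg/L and sampled at 96 hpf, was 1 pair and was made after a common scaling of all 12 libraries. Estimates for M510F01 minus boscalid were negative in 101 of 102 members, which are not separate observations, as most of them moved together between libraries. The medians were -0.22 for complex I, -0.23 for complex III, -0.20 for complex IV, -0.22 for ATP synthase and -0.08 for the mitochondrially encoded mRNAs, where the median of all 23131 genes tested was 0.00. No member passed a limma adjusted p of 0.05, where 0.013% of all genes did, and 4 had an unadjusted p under 0.05, against 4.6% of all genes. With the replicate number as a block 38 members had an unadjusted p under 0.05, against 14.1% of all genes. All 4 M510F01 libraries lay below all 4 boscalid libraries for cox6a1 and atp5mc1, where 1.39% of all genes tested did.

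Atp5mc1 averaged 1298 ± 129 normalized counts with M510F01 and 1707 ± 251 with boscalid (SD, n = 4 each), a log2 difference of -0.39 (95% interval -0.68 to -0.09) with an adjusted p of 0.84 by limma. Cox6a1 averaged 2030.2 ± 139 with M510F01 and 2538 ± 261 with boscalid, a log2 difference of -0.32 (95% interval -0.58 to -0.05) with an adjusted p of 0.84. Ndufb6 was at -0.32 (95% interval -0.65 to 0.01), ndufv1 at -0.20 (95% interval -0.47 to 0.06), uqcrc1 at -0.22 (95% interval -0.52 to 0.08), cox4i1 at -0.21 (95% interval -0.54 to 0.13) and atp5f1b at -0.19 (95% interval -0.47 to 0.08). Cox6a2 was the 1 member with a positive estimate, at 0.33 (95% interval -0.27 to 0.93). Mt-co1 was at -0.11 (95% interval -0.35 to 0.13), mt-cyb at -0.09 (95% interval -0.30 to 0.12) and mt-atp6 at -0.06 (95% interval -0.56 to 0.44). These intervals hold differences of either sign for most members, so the compounds are not shown to act alike or to differ on them. The nuclear subunit median of -0.22 ran from -0.32 without boscalid library 1 to -0.14 without boscalid library 3. Within numbers 1 and 2 it was -0.15, and within numbers 3 and 4 it was -0.29. The mitochondrial median was 0.24 within numbers 1 and 2 and -0.34 within numbers 3 and 4.

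Further genes of the chain and genes that serve it, outside the rule, were counted as well. These were 91 entries for cytochromes c and c1, assembly factors, mitochondrial gene expression and import, of which 79 were matched and 77 tested. With boscalid 66 of the 77 had positive estimates, with a median of 0.15, and none had a limma adjusted p under 0.05. Under an unadjusted p of 0.05 there were 7, close to the 7.68% of all genes tested. With M510F01 42 were positive, with a median of 0.01, and none passed either threshold. The carrier cytochrome c, cycsb, was at 0.30 (SE 0.17) with boscalid. Cyc1, the cytochrome c1 subunit of the complex III core, was at 0.21 (SE 0.13), though its symbol lies outside the rule. Cycsa had no reads in any library.

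Of the 23 complex IV assembly genes 21 were positive with boscalid, with a median of 0.18. Sco1, a copper chaperone of complex IV, had 100.1, 94.2, 122 and 108 normalized counts with boscalid, 78.7, 76.03, 93.2 and 86.98 with M510F01 and 67.5, 69.2, 85.01 and 80.05 with DMSO. All 4 boscalid libraries lay above all 4 DMSO libraries, and the lowest of them, at 94.2, was close to the highest M510F01 library, at 93.2. The log2 fold change of sco1 was 0.49 (SE 0.14, limma adjusted p = 0.52) with boscalid and 0.15 (SE 0.14) with M510F01. Cox11, another copper chaperone, was at 0.46 (SE 0.18, limma adjusted p = 0.65) with boscalid. The citrate synthase gene cs had 4479.5, 4476, 4595 and 4733 with boscalid, 4262, 4230.1, 3643 and 4293 with M510F01 and 3938, 3985, 4328 and 3873 with DMSO, with a log2 fold change of 0.18 (SE 0.10, limma adjusted p = 0.66) with boscalid. The outer membrane channel vdac1 was at 0.30 (SE 0.11, limma adjusted p = 0.63), and it was the third of the 77 with all 4 boscalid libraries above all 4 DMSO libraries, beside sco1 and cs, where 2.2% of all genes tested did so.

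Genes of mitochondrial gene expression and its control stood nearer to zero, with a median of 0.08 and 16 of 22 positive with boscalid. Tfam, which packs the mitochondrial DNA and takes part in its transcription, was at -0.01 (SE 0.12) and the mitochondrial RNA polymerase gene polrmt at 0.05 (SE 0.11). Nrf1, a transcription factor of nuclear respiratory genes, was at 0.15 (SE 0.10). Ppargc1a, the coactivator of mitochondrial biogenesis, had 514, 329.7, 278 and 201 normalized counts with boscalid, 527, 465, 308 and 331 with M510F01 and 472, 513, 341 and 359.7 with DMSO. Its counts were higher in libraries 1 and 2 than in 3 and 4 of each group, the reverse of the nuclear subunit genes, and its log2 fold change with boscalid was -0.41 (SE 0.25, limma adjusted p = 0.67).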

How the data were processed

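Total RNA of whole larvae was sequenced after ribosomal RNA removal with a stranded kit, per the labels. FastQC, cutadapt, STAR, featureCounts and DESeq2 are named, without versions, in the submitters' processing notes; the sources used here do not give the genome build, annotation or strand setting. The authors deposited, per compound, a signal table of normalized counts (reads per gene over 1 size factor per library) for 4 compound and 4 DMSO libraries. The authors also deposited a table per compound with log2 fold changes, a test score (the statistic column, not used here) and p-values, adjusted and not.

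Whole reads were recovered for 100% of the deposited signal values, within 0.01 reads. Deposited DMSO values differed between the tables by a ratio of 1.00296 to 1.00541. All 12 libraries were also put on 1 median-of-ratios scale, which lay within 1.01% of the deposited tables. Libraries held 12893093 to 17060350 reads, so a gene with few reads is measured with a counting error of its own, and that error is part of the spread tested.

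Groups came from the labels. Limma 3.58.1 in R 4.3.3 (trend and robust settings) was fitted to log2 of the normalized count plus 1 for all genes with a mean of at least 10, each compound against DMSO in its own table, and M510F01 against boscalid in a fit of the 12 libraries on the common scale. A fold change on this scale understates the change of low genes. Tests were two-sided, with Benjamini-Hochberg adjustment over all genes and a threshold of 0.05. Classes are described by counts and medians without a test. Alternatives were another pseudocount (0.5), no filter or a mean of at least 50, TMM scaling, size factors without mt- genes, limma without the robust setting, edgeR 4.0.16, DESeq2 1.42.0, the replicate number as a block, a term for numbers 1 and 2 against 3 and 4, a joint fit, and the omission of single libraries. The limma fit of boscalid against DMSO was checked on simulated data in which genes varied independently and the planted changes exceeded the class medians found here. That check does not cover changes as small as those medians. Python 3.11.15 with pandas 2.3.3 and matplotlib 3.10.9 served for tables and plots.

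The members, gene lists and tests were chosen with earlier results of these data known. Named were all mitochondrially encoded mRNAs, in each nuclear class the member with the highest mean and the 3 with the smallest p with boscalid, and a set of core subunits and isoforms. Other genes named, such as ndufa9a, ndufa9b, ndufb2, ndufaf7, cox5b2, cox6a2 and atp5mc3b, were chosen after their values were seen. So were those named from the 91 entries outside the rule. Order along the mitochondrial genome came from the RefSeq annotation of GRCz12tu, matched by gene number. Upper-case symbols (COX3, COX5B, COX7A2, NDUFAF8 and NDUFB1) fall outside the rule. A planned description of promoters was not run.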

Additional observations from a re-analysis of the deposited data

Results flagged for a closer look

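Of 135 groups of 4 libraries looked at, over the named genes and the class means per library, 6 held a library whose gap to the nearest of the others took up an unusually large part of the range, and chance alone flags about 1 in 20 groups. Ndufb6 was flagged in both M510F01, where library 4 had 623 normalized counts and the others 445 to 475, and DMSO, where library 3 had 598 and the others 413 to 421. Cox4i2 had 603 in M510F01 library 3 and 436 to 464 in the others. Atp5if1b had 752 in M510F01 library 4 and 509.9 to 548 in the others. Boscalid library 2 was low for neighbouring mitochondrial genes, at 7051 for mt-atp6 against 9583 to 10010.0 in the other boscalid libraries and at 747 for mt-atp8 against 1052 to 1094.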

How the results depend on the processing

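No member passed the threshold in any alternative or with any library left out, in any of the 3 comparisons. All 568 class medians and all 2312 estimates for named genes computed under alternatives stayed within 1 replicate standard deviation of the values reported. That measure is wide and cannot show the estimates to be stable. For nuclear subunit genes the pooled standard deviation was 0.23, where boscalid and DMSO means differed by 0.26 and M510F01 and DMSO means by 0.05. The counts over all genes moved more. For boscalid against DMSO, 4 genes were called, against 89 with DESeq2, 19 with a term for numbers 1 and 2 against 3 and 4, 9 in the joint fit of 12 libraries, and 2 to 8 with 1 library left out (8 without DMSO library 3, and 2 without DMSO library 1 or 2 or boscalid library 2 or 3). For M510F01 against boscalid, 3 genes were called, against 20 with DESeq2, 5 with the same term and 2 to 3 with 1 library left out. The causes were not tested.

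Whether the replicate numbers pair the samples was not settled by the check made. Same-numbered boscalid and DMSO libraries correlated at 0.51, 0.03, 0.37 and 0.24 in their deviations from the group means. Differently numbered ones ran from -0.44 (boscalid 4 with DMSO 1) to 0.31 (boscalid 4 with DMSO 3). With the replicate number as a block, genes called numbered 90 for boscalid against DMSO, 1 for M510F01 against DMSO (0 without the block) and 8 for M510F01 against boscalid. Members called remained at 0, with a smallest adjusted p of 0.067 for boscalid against DMSO. Under the block 71 members had an unadjusted p under 0.05 in that comparison, against 8 without it, while over all genes tested the share was 20.0% under the block, against 7.68% without it.

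Depth limits the members with few reads, such as ndufa9b and ndufa4l2a. Without DMSO library 3 the count of members with an unadjusted p under 0.05 with boscalid was 65, where 14.3% of all genes tested had one, and without boscalid library 3 it was 1, where 3.93% of all genes did.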

Other observations

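Of the respiratory chain genes with upper-case symbols, outside the rule for members, 4 are nuclear. COX5B, a complex IV subunit, had 2218, 2526, 3000.4 and 3066 normalized counts in boscalid libraries, 2142, 2269.6, 2454 and 2610.4 in M510F01 libraries and 1824, 2189.6, 2824 and 2206 in DMSO libraries. NDUFB1, a complex I subunit, had 368, 402, 528 and 436 with boscalid, 319, 315, 379 and 435 with M510F01 and 287, 345, 474 and 346 with DMSO. In both genes library 1 was the lowest boscalid and DMSO library and library 3 the highest DMSO library. Their log2 fold changes with boscalid were 0.26 (SE 0.16) for COX5B and 0.27 (SE 0.16) for NDUFB1. COX7A2 was at 0.22 (SE 0.20), and NDUFAF8, a complex I assembly factor with 20.9 to 60.3 normalized counts per library, was at -0.01 (SE 0.33).

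Some genes ran the other way within groups. Ndufb9 had 491, 381, 593 and 778 normalized counts with boscalid, 626, 626, 405 and 483 with M510F01 and 386, 449, 497 and 508 with DMSO, so its M510F01 libraries 1 and 2 stood above 3 and 4, as they did for mt-atp6. The import receptor gene tomm20a had 1239, 964, 833 and 1056 with boscalid, 1418, 1281, 1103 and 907 with M510F01 and 1271, 1214, 966 and 1199 with DMSO, while its paralogue tomm20b had 722, 908, 972 and 995 with boscalid, 706, 771, 827 and 922 with M510F01 and 634, 774, 1067 and 810.1 with DMSO. In each group tomm20a was higher in library 1 than in library 3, and tomm20b lower.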
